A study of Mus musculus with 18 samples.

Results

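Germline genes whose promoters are kept silent by DNA methylation in most cells outside the germ line were followed in nascent RNA from mouse embryonic stem (mES) cells. The members were 10 genes named by symbol, *Sycp1*, *Sycp3*, *Hormad1*, *Ddx4*, *Mael*, *Asz1*, *Stk31*, *Dazl*, *Slc25a31* and *Tex101*, out of 54446 genes in the count files. The members and the gene lists used below were chosen with earlier results of these data known. WT and *Tet2*-KO mES cells were grown alike in serum with LIF and the inhibitors CHIR99021 and PD0325901, and were passaged on gelatin to clear the feeder cells. They received 1 mM 5-ethynyl uridine (EU), a nucleoside that is built into RNA as it is made, for 10, 20 or 40 min, and the labelled RNA was captured with biotin and streptavidin. Each of the 6 combinations of genotype and EU time had 3 replicates, giving 18 libraries, and the libraries labelled *Tet2*-KO are called KO-labelled. The methods name 1 WT line and 1 *Tet2*-KO line. Replicates are therefore dishes, and a difference between the genotypes cannot be told apart from a difference between the lines.

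The methyl groups on promoter CpG sites are placed by the DNA methyltransferases DNMT3A and DNMT3B and maintained by DNMT1 with UHRF1, and the TET enzymes oxidize them. Many germline promoters are CpG-rich and are also held by the repressor complex PRC1.6, whose MGA and MAX subunits bind an E-box and whose E2F6 subunit binds an E2F site. In germ cells these promoters lose methylation, and their genes then serve meiotic chromosome pairing, the piRNA pathway against transposons and translation of germ cell messages. How *Tet2* loss related to the making of these RNAs is the question that the comparison of genotypes addresses.

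Between 17931614 and 23069143 reads per library fell on genes and between 44162 and 512186 on ERCC transcripts, spike-in RNAs added in proportion to total RNA. A level is given either as reads per 1000 ERCC reads, which follows the amount of labelled RNA, or as CPM, the reads per 1000000 gene reads. The latter is a share of the reads counted on genes and leaves out reads on no gene. The scales differ in their centre. The median log2 fold change of KO-labelled libraries over WT for all 19910 genes tested was 0.70 per ERCC read and -0.04 as a share. Reads on *Tet2* itself persisted in the KO-labelled libraries. Its share was 596 ± 5.71 (SD, n = 3), 690 ± 10.5 and 737 ± 3.42 CPM in WT at 10, 20 and 40 min, and 535 ± 5.12, 589 ± 6.51 and 639 ± 4.27 in KO-labelled libraries. The total of a gene cannot reveal a deleted exon, and genotypes are given as labelled. Markers of other states moved with genotype, beside 24.6% of all genes tested called higher as a share and 32% called lower. All 6 tested markers of 2-cell-like cells and all 6 Y-linked genes were lower in KO-labelled libraries as a share. The summed share of the 2-cell-like list was 20.2 to 33.7 CPM in WT and 2.53 to 4.88 in KO-labelled libraries, and that of the Y-linked list was 53.2 to 69.2 and 1.12 to 2.59. Of 9 tested pluripotency markers 7 were lower and 2 were higher, with summed shares of 3119 to 3304 in WT and 2241 to 2371 in KO-labelled libraries. *Sox2* had 0 reads in every library. It lies wholly inside *Sox2ot* on the same strand, where the counting left nearly all genes at 0, so its level is not known from these counts. The part of these differences in the results was not tested. In such bulk samples, more cells that make an RNA and more RNA per cell cannot be told apart.

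The promoters of the 10 genes held more CpG than the median promoter. The 250 bases before the RefSeq start (GRCm38.p6, the build called mm10) held 12 to 31 CpG dinucleotides, with a median of 18, against a median of 6 over all 32851 RefSeq windows of that length. The percentile among all windows was lowest for *Sycp3*, at 66.5, *Tex101*, at 70.6, and *Asz1*, at 72.7, and highest for *Ddx4*, at 94.8. The ratio of observed to predicted CpG was 0.64 to 1.00, against a median of 0.37 over all windows. The E-box CACGTG, which reads the same on both strands, was present in 7 of the 10 windows (70%) and in 6.02% of all windows. GCGGGA or its reverse complement TCCCGC, the core of an E2F site, was present in 4 of the 10 (40%) and in 16.9% of all windows. These 4, *Ddx4*, *Sycp3*, *Mael* and *Hormad1*, held both motifs, as did 1.45% of all windows. Motifs are commoner where CpG is dense. Among the 9497 windows with 12 to 31 CpG the shares were 9.75% for CACGTG, 37.3% for GCGGGA or TCCCGC and 3.41% for both. Neither motif was found in the windows of *Dazl*, *Asz1* and *Tex101*. The RefSeq start of *Tex101* lay 4625 bases from the GENCODE start of the gene, so its window may lie away from the start that was counted. A match of letters is a description and not a binding site.

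**Figure D1:**
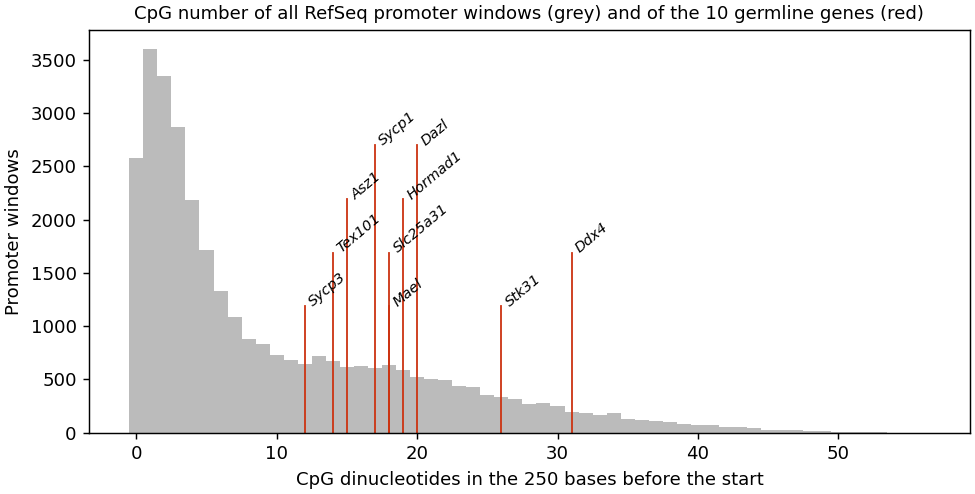
Number of CpG dinucleotides (x axis) in the 250 bases before each RefSeq start, with the number of windows on the y axis. Grey bars are all 32851 windows, with a median of 6, and the red lines mark the 10 germline genes, which lie between 12 for *Sycp3* and 31 for *Ddx4*.

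The promoters of *Stk31*, the gene with the highest fold change, and of *Hormad1*, *Sycp3* and *Mael*, which hold both motifs and differ in their response, are given from RefSeq 5′ to 3′ on the strand of the gene. Capitals mark CACGTG and GCGGGA or TCCCGC, and each stretch ends before the outermost annotated start.
Stk31 (chr6:49395354-49395538, strand +): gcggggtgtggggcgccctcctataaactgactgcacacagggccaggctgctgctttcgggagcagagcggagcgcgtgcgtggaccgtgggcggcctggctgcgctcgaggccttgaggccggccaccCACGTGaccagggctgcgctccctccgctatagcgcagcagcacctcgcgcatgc
Hormad1 (chr3:95559427-95559676, strand +): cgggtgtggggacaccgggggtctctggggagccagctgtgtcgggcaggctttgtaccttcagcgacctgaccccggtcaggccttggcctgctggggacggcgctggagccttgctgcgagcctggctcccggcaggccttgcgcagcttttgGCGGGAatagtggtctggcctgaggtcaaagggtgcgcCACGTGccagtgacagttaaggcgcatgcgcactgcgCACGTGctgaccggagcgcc
Sycp3 (chr10:88459337-88459568, strand +): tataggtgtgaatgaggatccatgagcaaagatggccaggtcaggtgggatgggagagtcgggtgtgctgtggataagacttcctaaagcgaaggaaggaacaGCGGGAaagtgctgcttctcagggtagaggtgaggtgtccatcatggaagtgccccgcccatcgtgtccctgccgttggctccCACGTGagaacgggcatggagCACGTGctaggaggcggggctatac
Mael (chr1:166238748-166238994, strand -): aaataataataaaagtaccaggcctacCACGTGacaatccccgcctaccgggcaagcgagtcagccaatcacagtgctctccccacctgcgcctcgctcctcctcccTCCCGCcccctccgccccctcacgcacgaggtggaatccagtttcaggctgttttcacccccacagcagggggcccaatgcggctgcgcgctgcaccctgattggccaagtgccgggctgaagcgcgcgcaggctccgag
*Hormad1* and *Sycp3* both carry the E-box 2 times and the E2F core 1 time, *Mael* carries each 1 time, and *Stk31* carries the E-box alone.

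All 10 genes passed the filter on low counts. *Tex101* passed only through the KO-labelled libraries, so a rise was built into its selection, while the other 9 also passed on the WT libraries alone. As a share of gene reads, 7 of these 9 genes had a higher value in KO-labelled libraries over the mean of the 3 EU times, *Ddx4* was lower, and *Sycp3* did not pass the test. With *Tex101* added, 8 of 10 were higher. Of all genes tested, 24.6% were called higher and 32% lower in that comparison. The median log2 fold change was 0.97 over the 9 genes, 1.04 with *Tex101*, and -0.04 over all genes. Per ERCC read all 9, and *Tex101*, were called higher, beside 80.5% of all genes called higher and 4.15% lower, so on that scale the number of calls does not set them apart. The median log2 fold change per ERCC read was 1.71 over the 9 genes and 0.70 over all genes. Calls came from the quasi-likelihood test of edgeR, with p-values adjusted by Benjamini-Hochberg over all genes tested, and log2 fold changes are given ± SE.

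**Figure D2:**
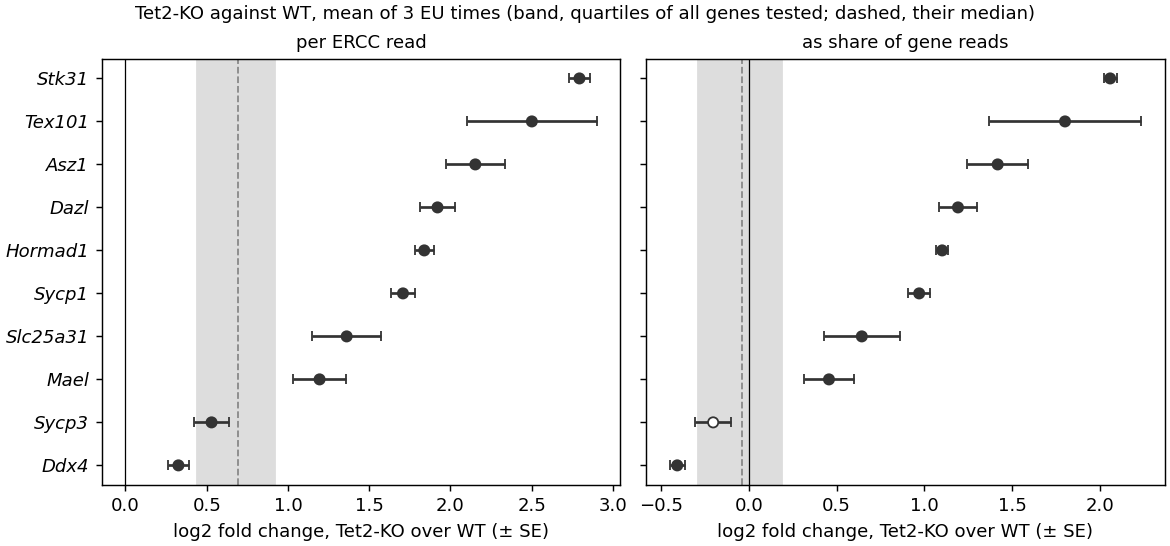
log2 fold change of KO-labelled libraries over WT, mean of 3 EU times, per ERCC read (left) and as a share of gene reads (right), with SE bars. Open points did not pass the test, the grey band spans the quartiles of all 19910 genes and the dashed line is their median. *Stk31* is highest on both scales, at 2.79 and 2.06, and *Ddx4* and *Sycp3* are the only members below the median of all genes.

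Of the 3 meiotic chromosome genes, *Hormad1* and *Sycp1* rose as a share and *Sycp3* did not pass the test. *Hormad1* (chromosome 3, 95559677 to 95587671 of mm10) encodes a HORMA domain protein of unsynapsed chromosome axes. Its share in WT was 32.8, 31.1 and 36.5 CPM at 10 min, 32, 29.7 and 32.5 at 20 min and 33, 31.7 and 32.2 at 40 min. KO-labelled libraries had shares of 68.6, 67.7 and 64.4, then 66.8, 71.0 and 70.1, then 74.1, 71.8 and 71.4. The lowest KO-labelled library, at 64.4, stood above the highest WT library, at 36.5. The log2 fold change was 1.10 ± 0.03, a 2.15-fold higher share (edgeR adjusted p = 2.0e-24), and at the separate EU times it was 1.00, 1.14 and 1.16. Per ERCC read the log2 fold change of *Hormad1* was 1.84 ± 0.06 (edgeR adjusted p = 2.0e-111).

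*Sycp1* (chromosome 3, 102818499 to 102936100) encodes the transverse filament of the synaptonemal complex. Its share was 8.88, 8.13 and 11.1 CPM in WT at 10 min, 11.9, 9.72 and 11.5 at 20 min and 12.7, 12.2 and 11 at 40 min. The shares in KO-labelled libraries were 18.4, 16.5 and 17.4, then 20.2, 20.2 and 21.4, then 24.1, 26.9 and 26.9. The 9 and 9 values did not overlap, and the lowest value in KO-labelled libraries, 16.5, exceeded the highest in WT, 12.7. *Sycp1* had a log2 fold change of 0.97 ± 0.06, or 1.96-fold (edgeR adjusted p = 1.8e-15).

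*Sycp3* (chromosome 10, 88459569 to 88473236) encodes a lateral element protein of the same complex. Its share was 7.94, 6.69 and 6.93 CPM in WT at 10 min, 7.68, 6.55 and 7.31 at 20 min and 5.46, 4.45 and 2.87 at 40 min. The KO-labelled libraries stood at 8.36, 7.60 and 5.77, then 4.45, 4.81 and 4.42, then 4.38, 3.76 and 5.02. The groups overlapped at 10 and 40 min and were apart at 20 min, where all 3 KO-labelled libraries were lower. How many of all genes were apart at a single EU time was not counted, here or for the genes below. The log2 fold change of the share was -0.20 ± 0.10 over the 3 times (edgeR adjusted p = 0.093) and -0.66 ± 0.18 at 20 min (edgeR adjusted p = 0.0035). Without the 10 min libraries the former was -0.31 and passed the test (edgeR adjusted p = 0.029), and it also passed at -0.24 without replicate 1 of the KO-labelled libraries at 10 min and at -0.28 without replicate 3 of WT at 40 min. *Sycp3* lies wholly inside *Chpt1*, a choline phosphotransferase gene on the opposite strand, whose share was higher by 0.33 ± 0.07 on the log2 scale, and strand-specific counting was inferred here and not stated. The genes with both motifs, *Ddx4*, *Sycp3*, *Mael* and *Hormad1*, had log2 fold changes of the share of -0.41, -0.20, 0.46 and 1.10. A relation between motifs and fold change was not tested.

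Of the 4 genes of the piRNA pathway and its granules, *Stk31*, *Asz1* and *Mael* rose as a share and *Ddx4* fell. *Stk31* (chromosome 6, 49395604 to 49469501) encodes a Tudor domain protein with a kinase-like domain. Its share in WT was 17.1, 15.6 and 17.1 CPM at 10 min, 19.4, 18 and 17 at 20 min and 15.0, 16.0 and 17.3 at 40 min. KO-labelled libraries had shares of 67.2, 62.5 and 64.8, then 67.9, 63.5 and 66.1, then 85.2, 82.9 and 77.3. The lowest KO-labelled library stood at 62.5 and the highest WT library at 19.4. The log2 fold change of *Stk31* was 2.06 ± 0.04, a 4.17-fold higher share (edgeR adjusted p = 2.4e-30). Per ERCC read it was 2.79 ± 0.06 (edgeR adjusted p = 3.4e-162), and *Stk31* was the only member whose 9 and 9 values did not overlap on that scale across EU times, beside 1.77% of all genes. Its levels were 0.732 to 4.15 reads per 1000 ERCC reads in WT and 5.6 to 36.6 in KO-labelled libraries.

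*Asz1* (chromosome 6, 18050964 to 18109061) encodes a mitochondrial outer membrane protein needed to make piRNAs. It had 12 to 31 reads per library in WT and 28 to 71 in KO-labelled libraries. Its share was 0.538, 0.898 and 1.41 CPM in WT at 10 min, 1.12, 0.898 and 0.605 at 20 min and 0.997, 1.17 and 0.971 at 40 min, and in KO-labelled libraries it was 1.91, 1.55 and 2.10, then 2.54, 3.11 and 2.21, then 3.01, 3.31 and 3.96. The 9 and 9 values did not overlap. *Asz1* had a log2 fold change of 1.42 ± 0.17, or 2.67-fold (edgeR adjusted p = 1.3e-08).

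*Mael* (chromosome 1, 166201201 to 166238747) encodes Maelstrom, a piRNA pathway protein. With 20 to 63 reads per library, its share was 2.69, 2.2 and 2.87 CPM in WT at 10 min, 1.58, 1.53 and 1.54 at 20 min and 1.6, 0.979 and 1.70 at 40 min. The KO-labelled libraries stood at 2.13, 2.22 and 3.20, then 3.12, 2.12 and 2.21, then 2.64, 2.13 and 2.40. The groups overlapped at 10 min and were apart at 20 and 40 min, a separation that was not counted over all genes. The log2 fold change was 0.46 ± 0.14 over the 3 times (edgeR adjusted p = 0.0075), with -0.04 at 10 min, 0.68 at 20 min and 0.73 at 40 min, and it was 0.71 without the 10 min libraries. The call at 20 min was lost without replicate 1 of the KO-labelled libraries or any of the 3 WT replicates of that time (edgeR adjusted p up to 0.21), and the call at 40 min without replicates 1 or 3 of the KO-labelled libraries or 2 of WT (edgeR adjusted p up to 0.14). Both calls were also lost with no filter on low counts (edgeR adjusted p = 0.084 and 0.056). Feeder fibroblast markers were highest in WT at 10 min, and those libraries enter the 10 min comparison of every member. Their 10 genes summed to 56.4 to 59.7 CPM in WT at 10 min, 27.0 to 30.9 in later WT libraries and 20.9 to 36.3 in KO-labelled libraries. *Lum* was at 0 in the WT libraries and in KO-labelled libraries at 10 and 40 min. Of 7 markers tested, 2 were higher as a share, 2 were lower and 3 did not pass the test, beside 24.6% of all genes higher and 32% lower. The part of these markers in the results was not tested. For *Mael* the change of the difference from 10 to 40 min, 0.78 ± 0.35, did not pass the test (edgeR adjusted p = 0.18).

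*Ddx4* (chromosome 13, 112598333 to 112652475) encodes the germ cell RNA helicase VASA and went the other way. Its share in WT was 26.7, 25.7 and 27.9 CPM at 10 min, 30.6, 30.2 and 33 at 20 min and 31, 31 and 30.9 at 40 min. KO-labelled libraries had shares of 21.2, 19.6 and 21.6, then 21.2, 23.7 and 22.8, then 22.6, 26.3 and 21.9. The groups were apart at every EU time, a separation that was not counted over all genes. Across EU times 8 of 9 KO-labelled libraries lay below every WT library, while all 9 lay below all 9 for 7.96% of all genes. The share of *Ddx4* fell by 0.41 on the log2 scale, with an SE of 0.04, which is 1.33-fold lower (edgeR adjusted p = 1.0e-09). Per ERCC read its direction was the opposite, with a log2 fold change of 0.33 ± 0.07 (edgeR adjusted p = 2.0e-06), which is below the 0.70 of all genes. At 20 min the log2 fold change per ERCC read was 0.02 and did not pass the test.

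*Dazl* (chromosome 17, 50279395 to 50293636) encodes an RNA-binding protein that promotes translation of germ cell messages. Its share was 2.15, 4.04 and 2.60 CPM in WT at 10 min, 3.36, 3.38 and 2.75 at 20 min and 3.68, 4.36 and 3.45 at 40 min. The KO-labelled libraries stood at 8.36, 6.71 and 6.03, then 5.45, 7.51 and 6.48, then 8.81, 9.54 and 9.37. No KO-labelled library fell within the WT range. *Dazl* had a log2 fold change of 1.19 ± 0.11, or 2.28-fold (edgeR adjusted p = 1.6e-11), and it was 1.27, 1.04 and 1.27 at 10, 20 and 40 min.

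The genes of germ cell metabolism and of the sperm surface were, with *Asz1*, those with the fewest reads in WT. *Slc25a31* (chromosome 3, 40708855 to 40726096) encodes the ADP/ATP carrier of the testis and had 9 to 33 reads per library in WT and 19 to 36 in KO-labelled libraries. Its share was 0.404 to 1.74 CPM in WT, with a median of 0.954, and 0.997 to 1.94 in KO-labelled libraries, with a median of 1.56, so the ranges overlapped. The log2 fold change was 0.64 ± 0.22 (edgeR adjusted p = 0.011), and of 1.31 at 10 min, 0.30 at 20 min and 0.32 at 40 min only that at 10 min passed the test. Without the 10 min libraries it was 0.32 and did not pass (edgeR adjusted p = 0.24).

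*Tex101* (chromosome 7, 24668007 to 24676675), a surface glycoprotein of male germ cells, had 1, 4 and 1 reads in WT at 10 min, 10, 4 and 1 at 20 min and 3, 0 and 7 at 40 min. The KO-labelled libraries had 17, 15 and 13, then 8, 3 and 13, then 15, 8 and 7. As a share the groups did not overlap at 10 min or 40 min, which was not counted over all genes, and overlapped at 20 min. Its log2 fold change was 1.80 ± 0.43 as a share, with 2.98 ± 0.77 at 10 min, and a fold of so few WT reads is uncertain. *Tex101* passed the filter only through the KO-labelled libraries, so its rise was built into the selection and its p-value is left out.

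**Figure D3:**
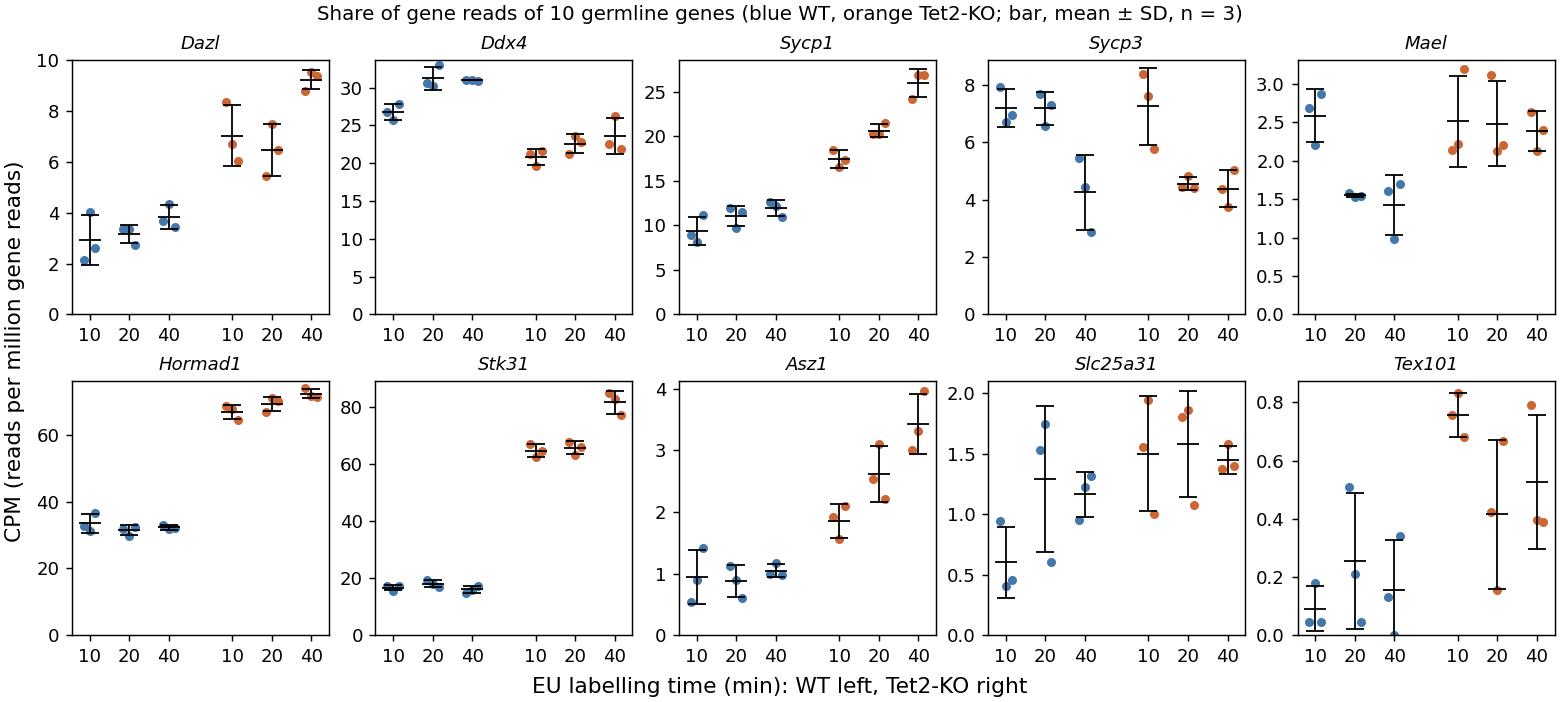
Share of each germline gene in CPM (y axis, from 0) for each EU time in min (x axis), with WT in blue on the left and KO-labelled libraries in orange on the right. Points are libraries and black bars are mean ± SD (n = 3). For *Dazl*, *Sycp1*, *Hormad1*, *Stk31* and *Asz1* every orange point lies above every blue point, and for *Ddx4* 8 of the 9 orange points lie below every blue point.

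As a share, 5 of the 10 genes, *Dazl*, *Sycp1*, *Hormad1*, *Stk31* and *Asz1*, had all 9 KO-labelled libraries above all 9 WT libraries, as did 6.94% of all genes tested. At the separate EU times, leaving *Tex101* aside, 6 of 9 genes were called higher and 1 lower at 10 min, 6 higher and 2 lower at 20 min, and 6 higher and 1 lower at 40 min, where 17.9%, 17.6% and 18.9% of all genes were called higher and 27.1%, 20.7% and 19.6% lower. Per ERCC read, 9, 6 and 9 of the 9 genes were higher at 10, 20 and 40 min, beside 79%, 53.7% and 68.2% of all genes, and 0 of the 10 were lower in edgeR at an adjusted or an unadjusted p under 0.05, beside 2.1%, 4.86% and 2.84% of all genes at an adjusted p. *Sycp3*, *Ddx4* and *Slc25a31* did not pass per ERCC read at 20 min, *Slc25a31* with an edgeR adjusted p of 0.055. *Slc25a31* did pass there in a fit of the 20 min libraries only (0.78, edgeR adjusted p = 0.022). It also passed without replicate 2 of WT or 3 of the KO-labelled libraries at 20 min, or without any 1 WT library at 10 min (edgeR adjusted p = 0.017 to 0.043). Some calls rested on a library or a setting. *Asz1* as a share at 10 min was lost without replicate 1 of WT (0.68, edgeR adjusted p = 0.071) and in a fit of the 10 min libraries only (0.96, edgeR adjusted p = 0.075). Per ERCC read at 40 min, *Ddx4* (0.29, edgeR adjusted p = 0.019) was lost without replicates 1 or 2 of the KO-labelled libraries or 1 or 3 of WT (edgeR adjusted p = 0.055 to 0.067) and with TMM over the ERCC transcripts (0.21, edgeR adjusted p = 0.081), and *Slc25a31* without replicate 1 of WT (edgeR adjusted p = 0.052). These comparisons share their libraries with the mean over the 3 times.

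The levels of the genes were compared per kilobase of gene span, since reads appeared to be counted over introns too. In WT the means ran from 0.0165 CPM per kilobase for *Asz1* to 1.16 for *Hormad1*. *Hormad1* stood at percentile 65.9 of all genes tested in WT and 82.5 in KO-labelled libraries, *Ddx4* at 50.5 and 46.4, and *Sycp3* at 47.2 and 45.8. *Stk31* went from percentile 36.2 to 62.5, *Dazl* from 36.4 to 50.8 and *Sycp1* from 23.9 to 33.7. The lowest positions in WT were those of *Asz1*, *Tex101*, *Mael* and *Slc25a31*, at percentiles 7.38, 8.55, 16.6 and 18.6, and they were 16.2, 20.4, 20.4 and 23.9 in KO-labelled libraries. Germline RNA was labelled in WT libraries as well, with at least 326 reads of *Stk31*, 571 of *Ddx4* and 562 of *Hormad1* in each.

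Labelling for 40 min brought more of every member per ERCC read than labelling for 10 min. From 10 to 40 min the log2 fold change per ERCC read was 1.55 to 3.32 in WT and 1.33 to 2.92 in KO-labelled libraries, and all 10 genes were called higher in both, beside 96.7% and 94.7% of all genes, with 0.01% and 0.00502% of all genes lower. As a share, *Sycp3* was lower at 40 than at 10 min in both genotypes, with log2 fold changes of -0.75 ± 0.18 in WT (edgeR adjusted p = 0.00073) and -0.73 ± 0.18 in KO-labelled libraries (edgeR adjusted p = 0.0015). *Mael* was lower in WT at -0.85 ± 0.25 (edgeR adjusted p = 0.0058). *Sycp1* was higher in both, at 0.35 ± 0.11 and 0.57 ± 0.10 (edgeR adjusted p = 0.010 and 2.1e-05). *Ddx4* was higher in WT at 0.21 ± 0.07 (edgeR adjusted p = 0.019), and *Asz1* was higher in KO-labelled libraries at 0.88 ± 0.27 (edgeR adjusted p = 0.010). In all, 2 genes were called higher and 2 lower in WT, beside 16.1% and 29.5% of all genes. In KO-labelled libraries 3 were higher, *Sycp1*, *Asz1* and *Stk31*, and 1 was lower, beside 16.5% and 20%. Without replicate 2 of WT at 10 min or replicate 1 of WT at 40 min only 1 gene was called higher in WT, and without replicate 2 of WT at 40 min only 1 was called lower.

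*Stk31* was the only member whose difference between the genotypes passed the test of a change with EU time, and this held as a share but not per ERCC read. Its share in KO-labelled libraries rose by a log2 fold change of 0.33 ± 0.06 from 10 to 40 min (edgeR adjusted p = 1.7e-05), and in WT the change was -0.05 ± 0.08. The difference of these changes was 0.38 ± 0.09 (edgeR adjusted p = 0.0072), a call that 5.89% of all genes also had. Per ERCC read the same difference was 0.04 ± 0.15 (edgeR adjusted p = 0.90), while the median of all genes was -0.29, with 0.552% of genes called higher and 19.3% lower. Per ERCC read no member was called in edgeR, and 2, *Slc25a31* at -1.31 ± 0.53 and *Ddx4* at -0.39 ± 0.16, had an unadjusted p under 0.05 (edgeR adjusted p = 0.060 and 0.075).

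The slope of the level on EU time is a measure of the rate at which labelled RNA appeared. For *Stk31* it was 0.101 ± 0.0128 (SE) reads per 1000 ERCC reads per min in WT and 0.888 ± 0.0549 in KO-labelled libraries, a ratio of 8.82 ± 1.25. For *Hormad1* the slopes were 0.207 ± 0.0134 and 0.744 ± 0.0447, a ratio of 3.59 ± 0.32. The ratio was 5.57 ± 0.81 for *Asz1*, 3.84 ± 0.47 for *Dazl*, 3.55 ± 0.30 for *Sycp1* and 3.16 ± 0.68 for *Mael*. *Ddx4* had the lowest ratio, 1.19 ± 0.12, with *Sycp3* at 1.75 ± 0.75 and *Slc25a31* at 1.75 ± 0.45. Over these 9 genes, kept because their slopes were large beside their SE in both genotypes, the median ratio was 3.55. It was 1.54 over the 15075 protein-coding genes, for which only positive slopes in both genotypes were required. *Tex101*, whose WT slope was 0.00095 ± 0.00082, was given no ratio. In WT the level of *Sycp3* was 1.055 ± 0.048 (SD, n = 3) at 20 min and 1.055 ± 0.332 at 40 min. Its WT slope thus does not describe a rise throughout. The ratios rest on 3 EU times and shift with the times used, with a median of 2.18 from 10 and 20 min alone and 4.525 from 20 and 40 min alone. The median of all genes is not given for these pairs, so a distance from all genes is not known for them. From these pairs of times the ratio was 3.89 and 14.5 for *Stk31* and 0.80 and 1.53 for *Ddx4*.

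**Figure D4:**
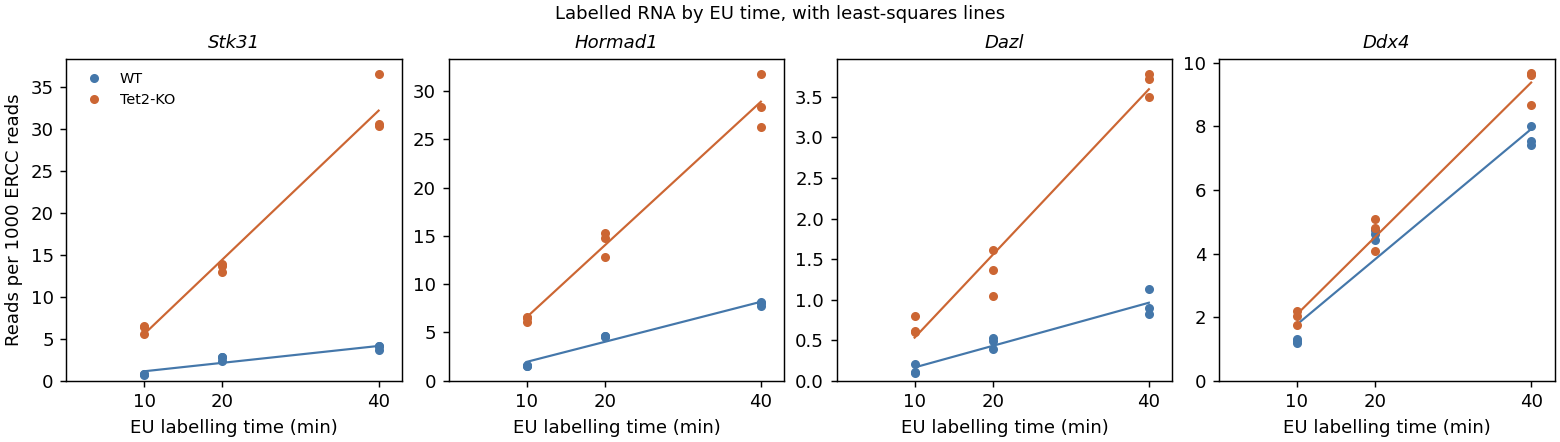
Level in reads per 1000 ERCC reads (y axis, from 0) against EU time in min (x axis) for 4 germline genes, with WT in blue, KO-labelled libraries in orange, a point per library and least-squares lines. The lines for *Stk31* separate most, with slopes of 0.101 and 0.888 per min, and those for *Ddx4* least, at 0.205 and 0.243.

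Other germline genes known to be controlled by promoter methylation were taken as a list of 30, of which 28 were tested. The list was chosen with earlier results of these data known, so its calls are no independent support for the members. As a share, 25 of the 28 were higher in KO-labelled libraries, 2 were lower and 1, *Dmrtb1*, did not pass the test. Of all genes, 24.6% were called higher and 32% lower. The median log2 fold change of the 28 was 0.71. *Dmrtb1* passed the filter only through the KO-labelled libraries, and without it the median was 0.74. Per ERCC read 25 of the 27 that passed the filter on the WT libraries alone were called higher, beside 80.5% of all genes, with a median of 1.47. The 3 highest as a share were *Fkbp6*, a piRNA pathway cochaperone, at 2.62 ± 0.04 (edgeR adjusted p = 4.4e-32), *Mov10l1*, the helicase that binds piRNA precursors, at 2.03 ± 0.08 (edgeR adjusted p = 2.1e-20), and *Rpl10l*, a ribosomal protein gene of the testis, at 1.62 ± 0.07 (edgeR adjusted p = 2.0e-20). *Fkbp6* had 185 to 305 reads per library in WT and 1006 to 1630 in KO-labelled libraries. The 2 that fell were homeobox genes of the Rhox cluster on the X chromosome, *Rhox6* at -1.11 ± 0.32 (edgeR adjusted p = 0.0036) and *Rhox9* at -0.88 ± 0.26 (edgeR adjusted p = 0.0044), with 5 to 37 reads per library. Genes of this cluster resemble each other in sequence, and reads shared between copies make these values uncertain. *Pnldc1*, the piRNA-trimming nuclease, had the smallest rise among those called, at 0.22 ± 0.04 (edgeR adjusted p = 1.7e-05).

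Lists by function overlapped this list. Their calls stand beside 24.6% of all genes tested called higher as a share and 32% called lower. Of 16 tested other genes of the piRNA pathway, 9 were higher as a share, 0 were lower (edgeR, at an adjusted or unadjusted p under 0.05) and 7 did not pass the test, with a median log2 fold change of 0.41. Of 22 other genes of meiotic chromosomes that passed the filter on the WT libraries alone, 13 were higher and 4 lower, with a median of 0.41. *Tex12*, a synaptonemal complex gene, passed the filter only through the KO-labelled libraries and is left out of that count. Of 9 tested genes of germ cell specification, 2 were higher and 3 lower, with a median of -0.15. Markers of the somatic cells of the gonad summed to 20.3 to 25.2 CPM in WT and 18.6 to 23.4 in KO-labelled libraries, and those of primitive endoderm to 214 to 270 and 194 to 267.

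**Figure D5:**
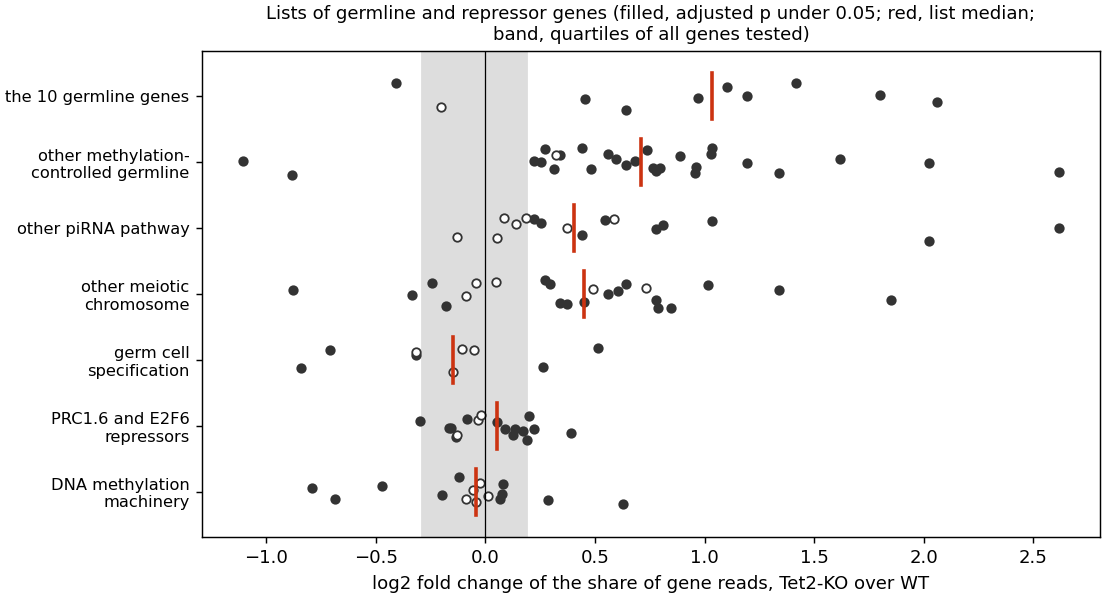
log2 fold change of the share of gene reads, KO-labelled libraries over WT, mean of 3 EU times (x axis), for the genes of 7 lists (rows), with filled points for adjusted p under 0.05, open points for the rest and red lines at list medians. The medians are 1.04 for the 10 germline genes, 0.71 for the other methylation-controlled genes, -0.15 for germ cell specification and -0.04 for the DNA methylation machinery. The first 2 include *Tex101* and *Dmrtb1*, which passed the filter only through KO-labelled libraries, and are 0.97 and 0.74 without them. The grey band spans the quartiles of all genes tested.

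The genes that act on these promoters were taken beside them. Of 15 tested genes of the DNA methylation machinery, 5 were higher and 5 lower as a share, with a median log2 fold change of -0.04. Among all genes tested, 24.6% were called higher and 32% lower as a share. *Dnmt3b* was higher by 0.63 ± 0.04 and *Dnmt3a* by 0.28 ± 0.03, both de novo methyltransferases, and their cofactor *Dnmt3l* was lower at -0.79 ± 0.04 (edgeR adjusted p = 1.2e-16, 1.5e-08 and 1.1e-18). *Dnmt1*, at 0.01 ± 0.02, and *Uhrf1*, at -0.03 ± 0.02, did not pass the test (edgeR adjusted p = 0.66 and 0.29). *Tet1* was higher by 0.08 ± 0.01 and *Tet2* lower at -0.20 ± 0.01 (edgeR adjusted p = 2.6e-08 and 1.4e-16). Of 17 tested genes of PRC1.6 and its partners, 9 were higher and 5 lower, with a median of 0.05. *E2f6* was lower at -0.30 ± 0.06, while *Pcgf6*, *L3mbtl2* and *Mga*, which encode other subunits, were at 0.13 ± 0.04, 0.17 ± 0.03 and 0.05 ± 0.01 (edgeR adjusted p = 4.9e-05, 0.0084, 9.7e-07 and 0.00018). Per ERCC read *Dnmt3l* was at -0.06 and did not pass, and the other genes of both lists named here were higher.

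The nearest tested protein-coding gene on each side of each member was also taken, 20 genes in all. As a share 7 were higher, 7 were lower and 6 did not pass the test, beside 24.6% of all genes higher and 32% lower. The median log2 fold change of the 20 was 0.04. The gene beside *Stk31*, *Fam221a*, was at 0.76, and *Npy* on its other side was at -0.98. *Ddx4* lay 8275 bases from *Slc38a9*, an amino acid transporter gene, which was at -1.69, the lowest of the 20. On its nearer side, 3972 bases away, *Il31ra* was at -0.10 and did not pass the test. The highest was *Ceacam10*, 100530 bases from *Tex101*, at 1.23. *Phldb3*, 38709 bases from *Tex101* on the other side, was at 0.001 and did not pass the test. These neighbours were named after their values were seen.

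The genes whose shares followed those of the 3 most abundant members over the 18 libraries were found by Pearson's r of log2 CPM. They were *Prex2*, *1110019D14Rik* and *Gm44748* for *Stk31*, each with an r of 0.996 to 3 digits, *Mid1*, *Gm10167* and *Gm48914* for *Hormad1*, with r of 0.995, 0.993 and 0.993, and *Fst*, *Resf1* and *Etnk1* for *Ddx4*, with r of 0.958, 0.956 and 0.955. The libraries fall into 2 genotypes, so these values mostly describe a like difference between them.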

How the data were processed

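Nascent RNA was sequenced in 18 libraries. Per the study's methods, reads were trimmed (Trimmomatic 0.39), aligned to mm10 with GENCODE M19 and ERCC sequences (HISAT2 2.2.1) and counted (HTSeq 0.12.4). The authors deposited raw read counts per gene. Feature type and strand setting are not given in the sources used here. Of genes wholly inside another on the same strand without shared exons, 141 of 142 had 0 reads, against 6.95% of those on the opposite strand, so reads behaved as counted by strand over whole gene spans. Names came from GENCODE M21 for 54409 of 54446 identifiers. Reads on no gene (13.2% to 16.9% of a library) were left out.

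Counts were tested with edgeR 4.0.16 (quasi-likelihood) in a fit of 6 groups, after filterByExpr with minimum count 10, with Benjamini-Hochberg adjustment at 0.05 and ERCC or gene read totals as library sizes. SEs are the absolute log2 fold change over the square root of F. Alternatives were DESeq2 1.42.0, TMM, other filters, a replicate block, separate EU times and each library left out. The procedure was tested on simulated data. Replicate pairs differed by more than counting noise (mean chi-square per gene 1.62 to 5.26). Without molecular identifiers, read counts are not counts of molecules, and p-values measure the spread between dishes. All members, the 3 highest and 3 lowest called genes of the list of other methylation-controlled genes and 11 regulators were named. Members and lists were chosen with earlier results of these data known.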

Additional observations from a re-analysis of the deposited data

Results flagged for a closer look

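The difference of *Stk31* between KO-labelled libraries and WT changed between EU times as a share of gene reads. The change from 10 to 40 min was 0.38 ± 0.09 on the log2 scale (edgeR adjusted p = 0.0072), with all 3 KO-labelled libraries at 40 min (77.3 to 85.2 CPM) above all 6 at 10 and 20 min (62.5 to 67.9), and with WT at 15.0 to 19.4 throughout. Leaving out each library in turn gave 0.33 to 0.44. Per ERCC read the change was 0.04 and did not pass the test.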

How the results depend on the processing

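Of the counts of called members and the median ratio of slopes, 514 values with a library left out and 151 under other settings stayed within 1.5 times the count or 1 error of the ratio, and 8 and 8 did not. As a share from 10 to 40 min, the members called higher in KO-labelled libraries numbered 5 with DESeq2 and 6 with TMM in place of 3. In WT they numbered 4 with DESeq2 and 4 with TMM in place of 2. In the edgeR fit 16.5% and 16.1% of all genes were called higher in KO-labelled and WT libraries. The shares of all genes under DESeq2 and TMM are not given here, so the larger numbers are no result about the members. Leaving out a library gave 1 to 3 higher and 1 to 2 lower in WT. Per ERCC read, DESeq2 with ERCC size factors called 1 member lower in the change from 10 to 40 min in place of 0. Leaving out a library called 0 to 2, and the edgeR fit called 19.3% of all genes lower. Over the mean of the EU times, the members called lower as a share numbered 2 in place of 1 without the 10 min libraries. That choice was made after seeing the data, and 9 members were tested in it, 6 of them higher. With a library left out 1 to 2 were lower, where *Sycp3* was added. In the edgeR fit of all libraries 24.6% of all genes were higher and 32% lower. The median ratio of slopes of the members was 2.18 from 10 and 20 min, 4.525 from 20 and 40 min, in place of 3.55, and 3.35 to 3.65 with a library left out.

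Directions that turned were those of small differences. *Ddx4* per ERCC read at 20 min was at -0.01046 with TMM over the ERCC transcripts and at -0.0488 to 0.110 with a library left out. *Mael* as a share at 10 min was at 0.0273 with DESeq2 and 0.0272 with TMM, and at -0.250 to 0.0694 with a library left out. Leaving out a library gave -0.107 to 0.153 for *Sycp3* at 10 min and -0.185 to 0.257 at 40 min, -0.0486 to 0.578 for *Slc25a31* at 20 min as a share, and -0.0565 to 0.0839 for the change of *Stk31* per ERCC read. The cause was not tested.

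Replicate numbers did not pair the libraries: over 45 pairs with the same number the correlation of deviations was -0.07 to 0.06. With the replicate number as a block, 10 members were called higher per ERCC read, and 8 higher and 1 lower as a share, as without it. These counts include *Tex101*, which passed the filter only through the KO-labelled libraries. Without the block 80.5% of all genes were higher per ERCC read, and 24.6% were higher and 32% lower as a share. With the block *Slc25a31* per ERCC read at 20 min passed (0.79, edgeR adjusted p = 0.049), the only call of a member between genotypes that the block changed.

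At 0 to 33 reads per library, differences of *Asz1*, *Slc25a31* and *Tex101* in WT are limited by depth.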
